A study of Drosophila melanogaster with 14 samples.

Results

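The places on the fly genome bound by dCTCF, the Drosophila homologue of the insulator protein CTCF, were compared with those bound by its partner CP190 in the line labelled dCTCF wild type. The members were all 700 peaks of the dCTCF antibody and all 2517 peaks of the CP190 antibody in that line, 3217 of the 8279 peaks in the 6 peak lists of the series. They were taken from the 2 lists as deposited, with no choice by strength. Chromatin came from whole adult Drosophila melanogaster of the Oregon-R strain, 2 to 3 days old, genotype dCTCFwt, and from 2 g of flies. The dCTCF group had 2 libraries made with a rat antibody, and the CP190 group had 2 libraries made with a mouse antibody. Their controls were 1 PI_rat and 1 PI_mouse library of genotype wt, so the 2 lists share no control library. The labels do not say how the dCTCFwt line was made, nor the proportion of males and females. Whole flies mix all tissues, and binding in fewer cells cannot be told apart from weaker binding in all of them.

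Insulator proteins mark borders between regulatory domains of chromosomes. dCTCF is a zinc finger protein that binds DNA by sequence, whereas CP190 is brought to DNA by proteins such as dCTCF, Su(Hw) and BEAF-32 and contacts them through its BTB domain. A CP190 peak can therefore lie where dCTCF does, or at a site of another DNA-binding partner. By its title, the study asks what dCTCF can do in the absence of CP190, and the wild-type lists show how far both proteins share sites there.

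Each antibody has 1 list made from both of its replicates, so there is no spread between replicates and no test between the antibodies could be made. Peaks are not replicates, and the intervals given are 95% Wilson intervals that cover counting error only. Each list gives 2 sets of calls per peak, with a −log10 p-value and a summit in each, and the distance between these summits served as the error of a position. The first summit was taken from the peak's own start and summit offset, and the second from those of the second set. Separate summit columns of the first set were not used. If the peak's own summit draws on both sets, this distance understates the error. Whether each set stands for 1 replicate is not given in the files. The fold enrichment of a peak over its control is the authors' own value and ranks peaks within its list, with place 1 the highest. The lists end at different levels of the irreproducible discovery rate (IDR), a measure of the agreement of a peak's ranks in repeated calls. The highest global IDR was 0.0499 in the dCTCF list and 0.00999 in the CP190 list. The −log10 p-values of the 2 sets ordered the peaks nearly alike, with Spearman's rho of 0.993 over 700 dCTCF peaks and 0.991 over 2517 CP190 peaks, which the selection of repeated peaks favours.

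With the lists as deposited, most dCTCF peaks carried CP190 and most CP190 peaks lay away from dCTCF. A CP190 peak overlapped 425 of the 700 dCTCF peaks by at least 1 bp (60.7%, interval 57.0 to 64.3). A dCTCF peak overlapped 427 of the 2517 CP190 peaks (16.96%, 15.5 to 18.5). These shares move with the lengths of the lists. There are 27.8% as many dCTCF as CP190 peaks, and with the CP190 list shortened to its strongest 700 peaks the shares were 27.6% of dCTCF peaks and 27.4% of CP190 peaks. For scale, dCTCF peaks covered 0.784 Mb of the chromosome arms and CP190 peaks 2.47 Mb, which is 0.591% and 1.86% of the 132.6 Mb between the first and the last annotated gene of each arm. The overlaps formed 431 pairs, as 5 dCTCF peaks met more than 1 CP190 peak and 4 CP190 peaks met more than 1 dCTCF peak. Overlap was rarely partial, since at the median pair 100% of the shorter interval was shared and the first quartile was 98.9%. The dCTCF summit lay inside the CP190 peak in 414 of the 431 pairs (96.1%), and the CP190 summit inside the dCTCF peak in 407 (94.4%).

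Positions are given in the dm6 build. The smallest overlap, 240 bp, was the whole of a dCTCF peak at 2R 8396625 to 8396864, inside CG2121, place 583 with 2.34-fold enrichment. Just outside the limit, a dCTCF peak at 3L 4072379 to 4073288, inside Faa, lay 100 bp from a CP190 peak. The next lay 142 bp from one, at 2R 20588147 to 20588430, inside HnRNP-K. For the 275 dCTCF peaks without CP190 the nearest CP190 summit was a median of 15401 bp away, and for 4 of them it was within 1000 bp. For 2087 CP190 peaks without dCTCF the nearest dCTCF summit was a median of 66369 bp away, in the shorter and so sparser list, and these distances are not compared.

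The share of dCTCF peaks with CP190 was level among the strongest dCTCF peaks, fell across the middle of the list and was level again in the lower part. By decile of fold enrichment it was 92.9%, 94.3% and 91.4% in the 3 strongest deciles, 81.4% in the next and 67.1% in the one after. From there on it was 37.1%, 37.1%, 32.9%, 37.1% and 35.7%. Places 1 to 350 carried CP190 at 299 of 350 peaks (85.4%, 81.3 to 88.7), and places 351 to 700 at 126 of 350 (36.0%, 31.1 to 41.2). In the CP190 list, 36.3% of the strongest decile had a dCTCF peak, against 7.54% of the weakest. Within the 431 pairs, the 2 fold enrichments were weakly related (Spearman's rho 0.323 across pairs, which share no library).

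**Figure D1:**
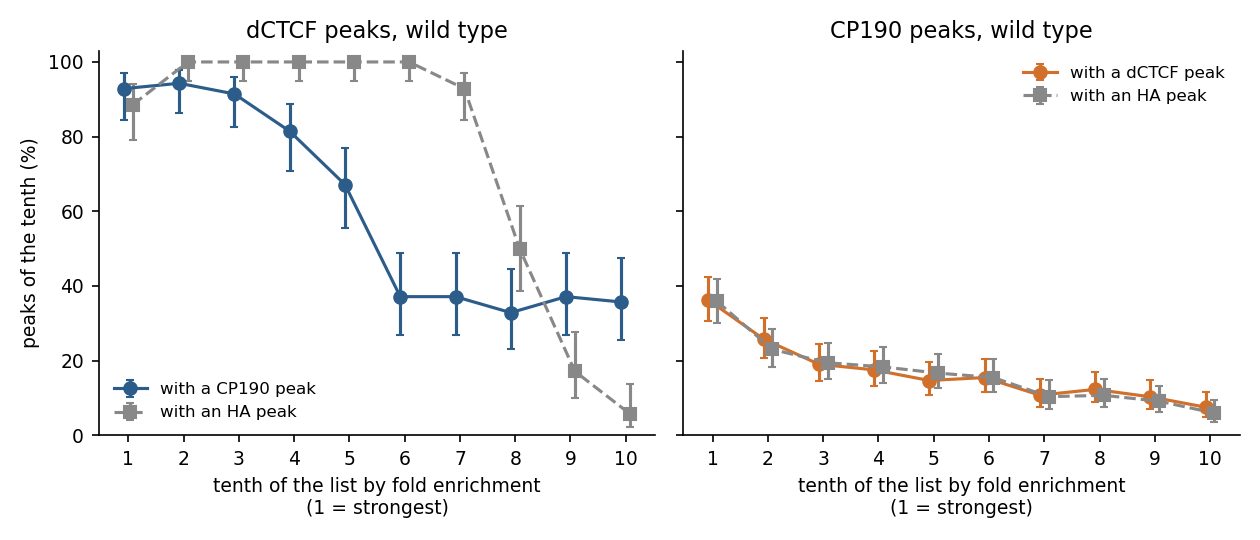
Share of peaks (%) by decile of fold enrichment, the strongest on the left, for dCTCF peaks (left panel: circles, with a CP190 peak; squares, with an HA peak) and CP190 peaks (right panel: circles, with a dCTCF peak; squares, with an HA peak), with 95% Wilson intervals as bars. In dCTCF peaks the CP190 share is 92.9% in the first decile and 35.7% in the last, where the HA share is 5.71%.

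The same line was also probed with an antibody against HA, a peptide tag, and that list shares the PI_mouse control with CP190. The labels do not say how the tag was placed. An HA peak overlapped 361 of the 425 dCTCF peaks with CP190 (84.9%, 81.2 to 88.0) and 167 of the 275 without it (60.7%, 54.8 to 66.3). In all, 167 peaks were marked by the dCTCF and HA antibodies and had no CP190 peak. CP190 peaks with dCTCF had an HA peak at 363 of 427 (85.0%), whereas 52 of the 2090 without dCTCF had one (2.49%, 1.90 to 3.25).

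HA and CP190 parted in the lower part of the dCTCF list. In the 3 weakest deciles the HA share was 50.0%, 17.1% and 5.71%, while the CP190 share stayed between 32.9% and 37.1%. Of the 528 dCTCF peaks with HA, 361 overlapped a CP190 peak (68.4%, 64.3 to 72.2), against 64 of the 172 without HA (37.2%, 30.3 to 44.6). Median dCTCF enrichment was 26.9-fold in those 361 peaks and 2.25-fold in those 64, although the strongest of the 64 reached 141.3-fold. The CP190 peaks had a median of 11.8-fold in the pairs with HA and 12.0-fold in the pairs without.

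Summits of the 2 proteins lay close together, though less close than the 2 sets of calls of one antibody, with the first summit taken as above. The dCTCF summit was a median of 22 bp from the CP190 summit in the 431 pairs, with quartiles of 9 and 55 bp. In the same pairs the 2 sets of dCTCF calls differed by a median of 9 bp and those of CP190 by 10 bp. The distance between proteins exceeded both of these distances in 227 of 431 pairs (52.7%). Summits were at most 50 bp apart in 318 pairs (73.8%) and over 200 bp apart in 58 (13.5%).

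The distance differed with strength and with HA. It was a median of 16 bp in pairs of dCTCF places 1 to 350 and 65 bp in those of places 351 to 700. In pairs with an HA peak it was 18 bp (quartiles 7.5 and 37), and in the 64 without one 131 bp (40.5 and 415). The 2 sets of dCTCF calls differed by a median of 7 bp in pairs with HA and 100.5 bp in pairs without, so positions of dCTCF were themselves less certain there. For CP190 these values were 9 bp with HA and 14 bp without. Summits were within 200 bp in 336 of the 367 pairs with HA (91.6%) and in 37 of the 64 without (57.8%).

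**Figure D2:**
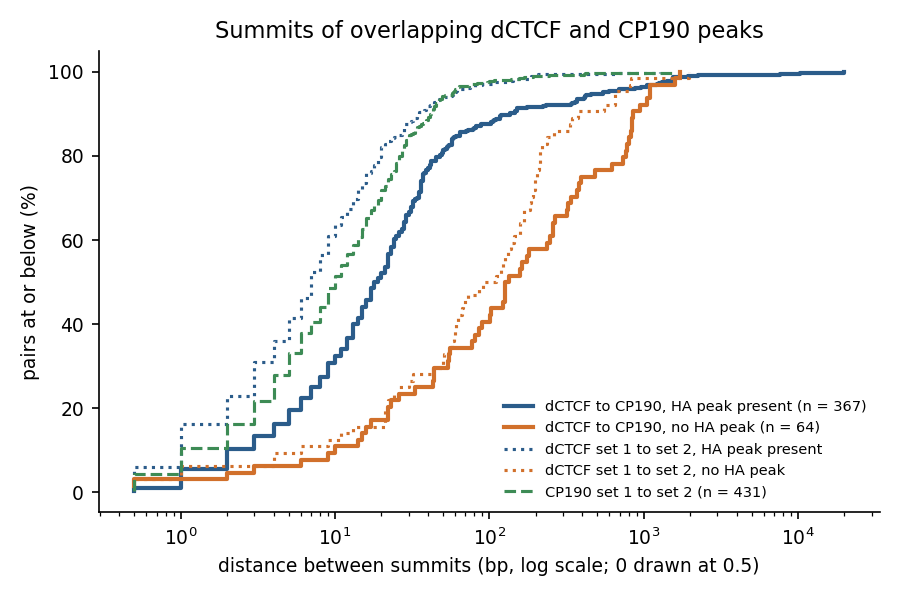
Cumulative share of overlapping pairs (%) by the distance between summits (bp, log axis), for dCTCF to CP190 (solid lines, pairs with and without an HA peak) and for the 2 sets of calls of dCTCF (dotted lines) and of CP190 (dashed line). Pairs with HA have a median of 18 bp and pairs without HA 131 bp, where the dCTCF calls themselves differ by 100.5 bp.

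The 3 largest distances all belonged to the chorion gene cluster on 3L, which encodes eggshell proteins and is known for its amplification in follicle cells of the ovary. A dCTCF peak there spanned 3L 8727991 to 8752362, the widest of the list at 24372 bp, with its summit between Prm and CG13306 and at place 32. It overlapped a CP190 peak at 3L 8723873 to 8738313, whose summit, between Cp15 and Cp19, was 19931 bp away. The other 2 distances were 10325 bp, from a dCTCF peak at 3L 8714447 to 8727740 (place 222), and 7689 bp. The wide peaks also held close partners, as the nearest CP190 summits were 5 bp and 36 bp from those 2 dCTCF summits.

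The difference in peak width between the lists turned on which peaks entered. The median was 873 bp for dCTCF and 817 bp for CP190, a difference of 56 bp with an interval of −18.6 to 111 from the order statistics of each median. It was 226 bp (124 to 285) at a global IDR of 0.01 for both lists and 228.5 bp (109 to 343) in their strongest 50%. With the CP190 list shortened to 700 peaks it was −394 bp (−475 to −324). Within pairs the dCTCF peak was the wider one in 266 of 431 (61.7%, 57.0 to 66.2), with medians of 1084 bp for dCTCF and 924 bp for CP190. dCTCF peaks with CP190 were wider than those without, at 1080 and 654 bp (difference 426 bp, 333 to 507). They were also stronger, with medians of 22.1-fold and 2.97-fold, and width followed enrichment in the list (Spearman's rho 0.650 across 700 peaks). Within places 1 to 350 the widths were 1336 bp with CP190 and 962 bp without (difference 374 bp, −64.0 to 601). In places 351 to 700 they were 557.5 and 613 bp (difference −55.5 bp, −141 to 17.1). For CP190 peaks the medians were 923 bp with dCTCF and 800 bp without, and their enrichment 11.9-fold and 6.53-fold.

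**Figure D3:**
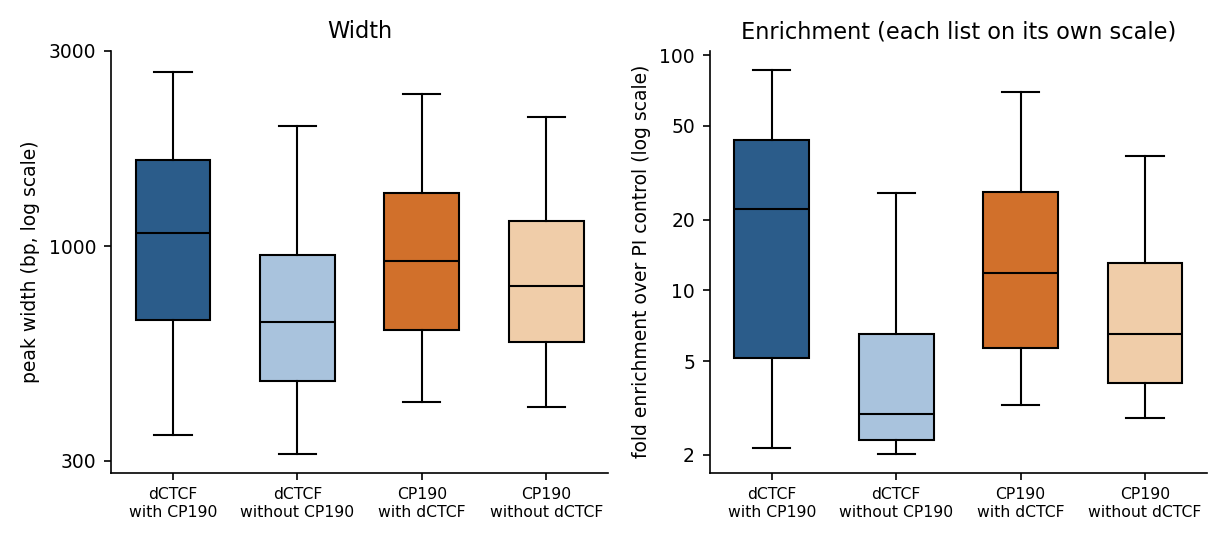
Peak width in bp (left, log axis) and the authors' fold enrichment over the control (right, log axis) for dCTCF peaks with and without CP190 and CP190 peaks with and without dCTCF. Boxes show quartiles and the median, whiskers the central 90%. The dCTCF peaks with CP190 have medians of 1080 bp and 22.1-fold, those without 654 bp and 2.97-fold.

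The 5 strongest dCTCF peaks with CP190 had summits between protein-coding genes. The first, place 2 with 161.2-fold enrichment, was at 3R 31059950 to 31063419, between dco, a casein kinase of the circadian clock, and Sox100B, a Sox transcription factor. Its −log10 p was 6565 in the first set and 6662 in the second, and its summit was 1 bp from that of a CP190 peak of 39.1-fold (place 156 of 2517). Place 4, at X 13561615 to 13564542 beside Tpst, a tyrosylprotein sulfotransferase, had 151.2-fold enrichment, and CP190 there held place 9 with 97.4-fold. Place 5, at X 18843230 to 18844608 between Pvf1, a ligand of the PDGF and VEGF receptor, and htk, reached 146.1-fold with CP190 at place 280. Place 7, at 3L 10898013 to 10900379 beside Aps, had 141.3-fold enrichment and CP190 at place 161. Place 8, at X 5880579 to 5885167 near Act5C, a cytoplasmic actin gene, had 137.1-fold enrichment and CP190 at place 97. In these 5 pairs the summits were 1 to 36 bp apart, while CP190 ranged from 27.2-fold to 97.4-fold.

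Pairs high in both lists were led by the one beside Tpst. The next was at 2R 15338937 to 15340073, between Hr51, a nuclear receptor, and unc-5, a netrin receptor, with dCTCF at place 19 (106.1-fold) and CP190 at place 2 (120.3-fold). Inside Egfr, the receptor for epidermal growth factor ligands, a pair at 2R 21534906 to 21536675 held places 25 and 10. Inside siz, an exchange factor for Arf GTPases, a pair at 3L 21049193 to 21050590 held places 31 and 4. Inside RapGAP1, which acts on Rap GTPases, a pair at 2L 7533931 to 7535944 held places 20 and 26. Summits in these 5 pairs were 16 to 79 bp apart.

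Some of the strongest dCTCF peaks had no CP190 peak. The top of the list, 197.9-fold at 2L 14705272 to 14707522 between osp and CG15282, had a −log10 p of 7288 and 7353 in the 2 sets, and the nearest CP190 summit was 87697 bp away. Place 3, 161.2-fold, was at 3L 2850591 to 2853065 inside Tet, a member of the family of dioxygenases that modify nucleic acids. Place 6, 145.9-fold, was at 3L 5869248 to 5871211 between vn, a ligand of Egfr, and CG5568. Place 17, 109.4-fold, was at 2R 19824930 to 19826978 between Obp56h, an odorant-binding protein gene, and Toll-7, a Toll family receptor. Then came place 65, 58.5-fold, at 3L 17596437 to 17597838 inside Eip74EF, an ecdysone-induced transcription factor.

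The 4 strongest of these also lacked a wild-type HA peak, and 3 of the 4 had a CP190 peak in the deletion line. The lists of dCTCFΔ705-733, which lacks those residues, were consulted only for peaks at wild-type dCTCF sites, a step chosen after their values were seen. An HA peak of the deletion line was present at 4 of 4, a dCTCF-antibody peak at 4 of 4 and a CP190 peak at 3 of 4. Of the 70 strongest wild-type dCTCF peaks, 70 had a deletion HA peak, 70 a deletion dCTCF-antibody peak and 61 a deletion CP190 peak (87.1%), against 74.4%, 74.0% and 54.4% of all 700. Of the 275 dCTCF peaks without wild-type CP190, 29 had a deletion CP190 peak (10.5%). Of the 172 without wild-type HA, 29 had a deletion HA peak (16.9%). Most of these were weak, with median enrichments of 2.97-fold and 2.25-fold. Deletion CP190 held place 141 of 3164 beside osp, place 52 inside Tet and place 14 beside vn, with 53.9-fold, 82.1-fold and 105.4-fold enrichment. Between Obp56h and Toll-7 and inside Eip74EF neither genotype had a CP190 peak. In all, 8 of the 70 strongest wild-type dCTCF peaks had no wild-type HA peak, and a deletion HA peak was present at these 8 as at the other 62. The CP190 peak at place 1 had a global IDR of 0.00948, against a median of 0.00151 in its decile, in a list that ends near 0.01. In the dCTCF list, 4 of the 10 strongest peaks had a global IDR above 0.01, as did 4 of the 70 strongest (5.71%) and 185 of all 700 (26.4%). Whether the limit removed strong peaks from a list was not tested.

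CP190 without dCTCF was also found at the top of its list. Place 1 of CP190, 129.7-fold with a −log10 p of 4858 and 4787 in the 2 sets, was at X 4105239 to 4106756, between brn, a glycosyltransferase gene, and cib, an actin-binding protein gene. The nearest dCTCF summit was 364680 bp away. Place 7, 100.6-fold, was at 3L 8328349 to 8330219 inside CG34462, next to the cuticle protein gene Cpr66Cb. Place 8, 97.6-fold, was at X 3569207 to 3571369 inside DIP-alpha, a cell surface protein of the immunoglobulin family, and ppk8, a sodium channel gene of the pickpocket family. Place 11 was at 3R 10674893 to 10678147 beside CG6465, and place 14 at 2L 1908794 to 1910990 inside Wdr62. None of these 5 had an HA peak.

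dCTCF peaks without CP190 lay inside genes more often than those with it, and the difference was smaller within places 1 to 350 and within places 351 to 700. On the arms, the summit was inside a protein-coding gene, exons and introns combined, in 167 of 423 dCTCF peaks with CP190 (39.5%, 34.9 to 44.2) and in 161 of 275 without (58.5%, 52.6 to 64.2). The difference was −19.1 percentage points (−26.3 to −11.5). It was −5.94 points (−20.5 to 7.19) in places 1 to 350 and −4.66 points (−15.3 to 5.80) in places 351 to 700. Strength was not matched in places 1 to 350, where median enrichment was 32.9-fold with CP190 and 15.3-fold without. In places 351 to 700 the medians were 2.67-fold and 2.61-fold. Among peaks with HA the shares were 33.4% with CP190 and 51.5% without. For CP190 peaks they were 33.6% with dCTCF and 39.6% without. The share of the arms that lies inside protein-coding genes was not measured, so none of these shares is read as an excess or a lack.

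Gene ends held summits of both proteins, most often those of CP190 peaks without dCTCF. A summit within 200 bp of either end of a protein-coding gene was found in 38.8% of dCTCF peaks with CP190 (164 of 423) and 32.7% of those without (90 of 275), a difference of 6.04 points whose interval, −1.27 to 13.1, includes 0. It was −2.46 points (−17.1 to 11.2) in places 1 to 350 and 8.09 points (−2.16 to 18.5) in places 351 to 700. With both lists limited to their strongest 50% it was −19.1 points (−29.3 to −8.56), and within 1000 bp of a gene end, over all peaks, 13.2 points (5.80 to 20.5). For CP190 peaks the shares were 41.9% with dCTCF (178 of 425) and 49.0% without (1022 of 2086), a difference of −7.11 points (−12.2 to −1.91). In the strongest decile of CP190 peaks 35.5% were at a gene end, and in the weakest 64.5%. Starts and ends of genes could not be told apart with the annotation used here. The share of the arms within 200 bp of a gene end was not measured, so none of these shares is read as an excess.

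**Figure D4:**
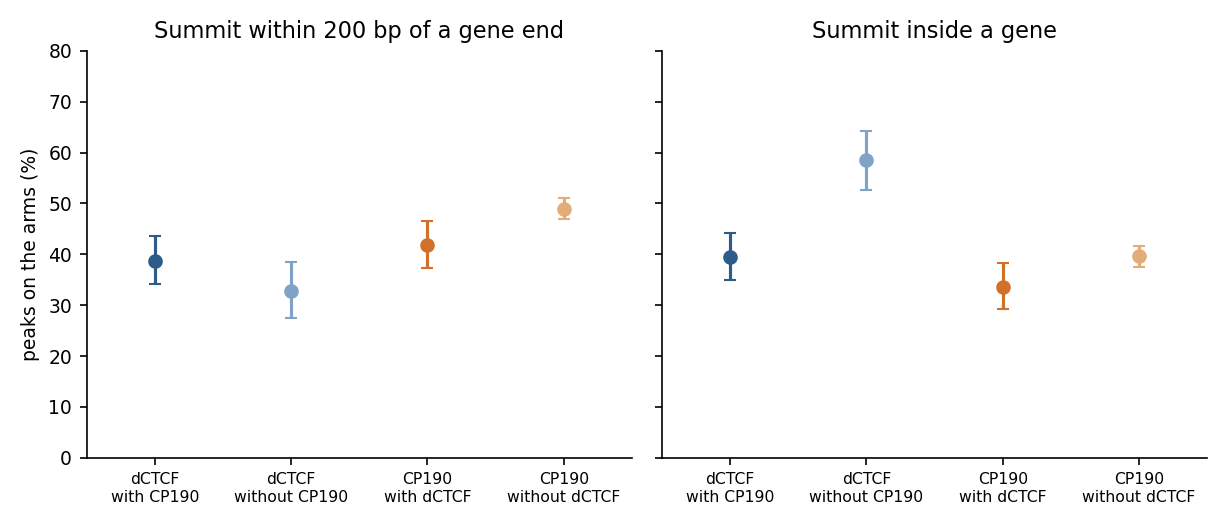
Share of peaks on the arms (%) with the summit within 200 bp of either end of a protein-coding gene (left) or inside one (right), with 95% Wilson intervals as bars. dCTCF peaks without CP190 have the highest share inside genes, 58.5%, and CP190 peaks without dCTCF the highest share at gene ends, 49.0%.

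Genes of 4 lists were then examined for a summit inside them or within 1000 bp. Of all 13922 protein-coding genes on the arms, 5.9% had a dCTCF summit, 3.77% one of a dCTCF peak with CP190, and 22.6% a CP190 summit. Ribosomal protein genes carried CP190 at 49 of 85 (57.6%) and dCTCF at 7 of 85 (8.24%), of which 6 had a dCTCF peak with CP190. Their median length was 1.33 kb, against 2.16 kb over all these genes. The strongest dCTCF peak among them was inside RpS21 at place 28 (85.4-fold), followed by the one near RpS28a at place 36 (76.0-fold), and both had CP190.

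Genes that encode insulator proteins and their partners showed CP190 more often than dCTCF, as did all protein-coding genes on the arms. CP190 was found at 9 of 19 (47.4%) and dCTCF at 1 of 19 (5.26%), against 22.6% and 5.9% of all protein-coding genes. The strongest CP190 peak was inside su(Hw), the gene of a zinc finger insulator protein, at place 267 with 27.8-fold enrichment. The remaining CP190 peaks at these genes held places 1470 to 2489, including those inside mod(mdg4) and Ibf1. The peak inside Ibf1, at place 1662, was also the one counted for Ibf2. The 1 gene with dCTCF was pzg, a chromatin protein gene also known as Z4, with dCTCF at place 182 (29.5-fold) and CP190 at place 1488 (5.74-fold).

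Of the 8 Hox genes, which specify segment identity, 2 had dCTCF (25.0%) and 4 had CP190 (50.0%). Over all protein-coding genes on the arms the shares were 5.9% and 22.6%. The Hox genes had a median length of 30.6 kb, against 2.16 kb over all these genes, so they offer more room for a summit. Antp held 3 dCTCF peaks. Those at places 82 and 248 (51.9-fold and 19.8-fold) had CP190 at places 70 and 755, and the one at place 420 (4.31-fold) had none. At pb and Ubx there was CP190 without dCTCF, at places 666 and 340. Between Ubx and Abd-B, 8 dCTCF peaks were called and 3 of them had CP190, the highest pair by CP190 being inside Abd-B at 3R 16969344 to 16970461 (dCTCF place 74, CP190 place 112, summits 36 bp apart). The 5 others held places 292 to 570, with no CP190 summit closer than 11762 bp.

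Among histone genes, 2 of 115 had dCTCF and 2 had CP190 (1.74% each), against 5.9% and 22.6% of all protein-coding genes. Those 2 were the variant genes His2Av and His3.3B. At His2Av a dCTCF peak at place 109 overlapped CP190 at place 2361, and at His3.3B the 2 proteins had separate peaks. Most histone genes are near-identical repeated copies, whose values are uncertain in peak calls.

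Over the whole lists, dCTCF peaks were fewer per Mb on the X than on the autosomal arms, and CP190 peaks more. There were 4.46 dCTCF peaks per Mb on the X and 5.44 on the autosomal arms, and 20.2 CP190 peaks per Mb on the X and 18.7 on the autosomal arms. For dCTCF this differed along the list. Places 1 to 350 held 62 X and 286 autosomal peaks, and places 351 to 700 held 43 and 307. The spans were 23.5 Mb for the X and 109.1 Mb for the autosomal arms. The X peaks of dCTCF were stronger, with a median of 13.7-fold against 7.02-fold on the autosomal arms, and 100 of 105 (95.2%) had an HA peak, compared with 426 of 593 (71.8%). CP190 was present at 73 of 105 X peaks (69.5%, 60.2 to 77.5) and 350 of 593 autosomal ones (59.0%, 55.02 to 62.9), a difference of 10.5 points (0.363 to 19.4). The interval included 0 with the second set of calls (9.21 points, −0.959 to 18.2), at a global IDR of 0.01 (7.41, −3.15 to 16.3) and in the strongest 50% of both lists (10.3, −3.25 to 21.9). It left out 0 with an overlap of at least 50% of the shorter interval (11.2 points, 1.03 to 20.1). The same held with summits at most 200 bp apart (15.7, 5.46 to 24.9) and with the CP190 list shortened to 700 peaks (12.5, 3.01 to 22.6). The difference was 9.98 points (0.199 to 16.1) in places 1 to 350 and −1.27 points (−14.9 to 14.5) in places 351 to 700. Among dCTCF peaks with HA it was 2.16 points, with an interval of −8.33 to 11.5.

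The share of dCTCF peaks with CP190 was 58.4% on 2L, 62.5% on 2R, 57.0% on 3L and 58.4% on 3R, with overlapping intervals. On 4, CP190 was found at 4 of 4, which allows a share as low as 51.0%. The share of CP190 peaks with dCTCF was 15.3% on the X, 16.2% on 2L, 15.0% on 2R, 20.4% on 3L and 16.98% on 3R. The median distance between summits was 17 bp on the X and 23 bp on the autosomal arms. Off the arms there were 2 dCTCF peaks, both with CP190, and 6 CP190 peaks.

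**Figure D5:**
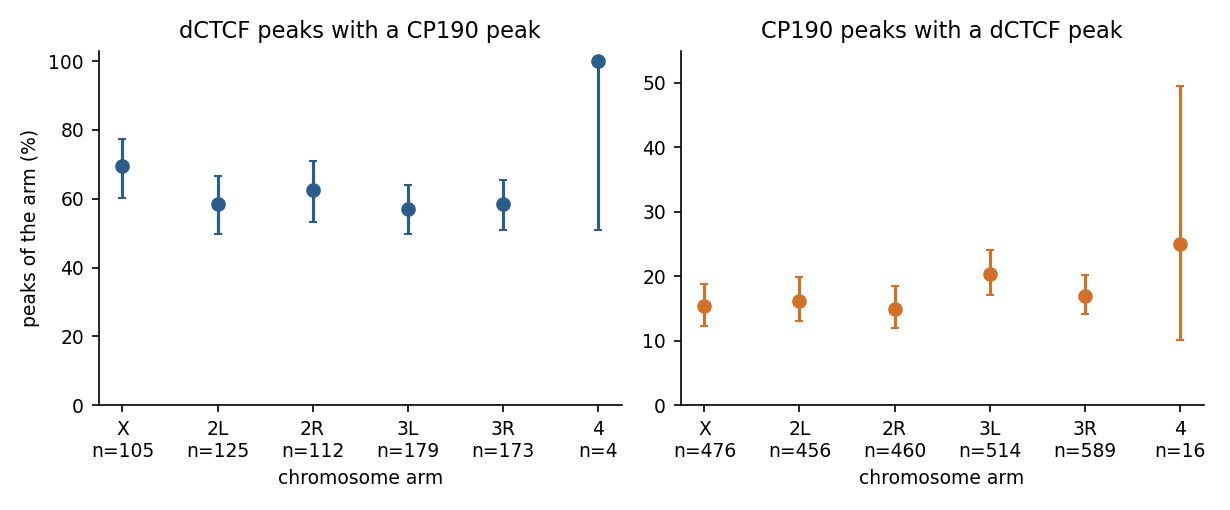
Share of dCTCF peaks with CP190 (left) and of CP190 peaks with dCTCF (right) on each chromosome arm (%), with 95% Wilson intervals as bars and the number of peaks under each arm. The X has 69.5% of its dCTCF peaks with CP190, the large autosomal arms 57.0% to 62.5%.

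The strongest dCTCF peaks of each arm were those named above on 2L, 3L, 3R and X, one inside otp, a homeobox gene, on 2R (place 9, 136.6-fold), and one between mir-9385 and lncRNA:CR43437 on 4 (place 188, 28.3-fold). CP190 was present at 4 of these 6, all but 2L and 3L. For CP190, the strongest peak of an arm had dCTCF on 2L (inside sick, place 3), 2R, 3L, 3R (between Ald1 and CG6154, place 5) and 4 (place 41), and not on X. On 3R and 4 the nearest dCTCF summit was 830 bp and 874 bp away, compared with 2 to 79 bp on 2L, 2R and 3L. Those dCTCF peaks were low in their list, at place 654 on 3R (2.10-fold, without HA) and place 431 on 4 (4.05-fold, with HA).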

How the data were processed

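Peaks are those the authors deposited, 1 list per antibody and genotype from 2 replicates against 1 control library, per the labels. The submitters' processing notes name cutadapt, Bowtie2, Picard, deepTools and the builds dm6 and dm3 without their role, and the peak caller is not given in the sources used here. The 20 columns follow the layout of the IDR tool. By that layout the authors' fold enrichment is ChIP over control as a linear ratio, and their deposited −log10 values belong to p-values and to the global IDR. Depth is unknown, since no read counts are given.

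Overlap was computed in Python 3.11.15 with pandas 2.3.3, tested on simulated data, and gave the same 425 and 427 peaks as bedtools 2.31.1. Shares have Wilson intervals and their differences Newcombe's (scipy 1.17.1). Medians have order-statistic intervals. Positions are 1-based and read as dm6, since peaks on 3R lie past the end of that arm in dm3, with gene names from a RefSeq table of Release 6 plus ISO1 MT, which gives neither strand nor exons nor bases, so the planned motif counts were not run.

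Named peaks are the 5 strongest dCTCF peaks with and without CP190, the 5 strongest CP190 peaks without dCTCF, the 5 pairs highest in both lists, the 3 widest-spaced pairs, those beside the overlap limit, the strongest per arm, dCTCF peaks from Ubx to Abd-B, and those at genes of 4 lists. Members and lists were chosen with earlier results of these data known. The division at place 350, the splits by HA and the look at the deletion line were added after values were seen.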

Additional observations from a re-analysis of the deposited data

How the results depend on the processing

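Of 59 alternative values for 8 results, 38 stayed inside the interval of the main value and 21 did not. The shares below are of dCTCF peaks with CP190, then of CP190 peaks with dCTCF. Summits at most 200 bp apart gave 53.3% and 14.8%, a summit distance of 17 bp and 72.1 points between the strongest and weakest quintile of dCTCF peaks. A global IDR of 0.01 for both lists, which left 515 dCTCF peaks, gave 69.3% and 14.4%, and dCTCF peaks 226 bp wider than CP190 peaks. The CP190 list shortened to its strongest 700 peaks gave 27.6% and 27.4%, 16 bp and a width difference of −394 bp. It also gave a difference at gene ends between dCTCF peaks with and without CP190 of −4.93 points, against 6.04. The strongest 50% of both lists gave 14 bp, 228.5 bp between the lists, 311.5 bp between dCTCF peaks with and without CP190, and −19.1 points at gene ends. Gene ends within 1000 bp gave 13.2 points and within 50 bp −2.16 points. dCTCF peaks with HA only, chosen after the data were examined, gave 68.4%, 14.5% and 186 bp. What caused these changes was not tested. The second set of calls and an overlap of 50% moved no value outside the interval of the main one, although with the second set the interval of the difference between X and autosomal arms included 0. No replicate could be left out, since a list holds both. No paired analysis was possible because the lists give no value per replicate library. A peak missing from a list does not show missing binding.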
